A study of Mus musculus and Sus scrofa with 30 samples.

Results

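Porcine dedifferentiated fat (DFAT) cells treated with magnolol were compared with DFAT cells treated with dicoumarol, gene by gene, by bulk RNA-seq. The 6 libraries compared, 3 with magnolol and 3 with dicoumarol, were taken by their column names from the DFAT table and are 6 of the 30 libraries of the study. DFAT cells are fibroblast-like cells that arise when mature fat cells lose their lipid in culture; here they came from subcutaneous fat, and the labels name neither the animal nor the number of animals. Adipogenic differentiation was induced for all 15 DFAT libraries with 0.5 µM dexamethasone, 12.5 µM isobutylmethylxanthine (IBMX), 20 µM biotin, 10 µM pantothenate, 2 mM GlutaMAX and 2% fetal bovine serum, with libraries taken on day 5. The 5 groups of 3 received the solvent DMSO (vehicle), dicoumarol, magnolol, dicoumarol together with magnolol (the combination), or rosiglitazone during differentiation. No compound's dose is stated in the labels, so each difference is between these treatments and not between matched doses. A parallel set of 15 libraries came from the mouse preadipocyte line 3T3-L1 with the same 5 compound groups, also on day 5, but in another medium. That medium held 0.75 µg/mL insulin, 75 nM dexamethasone, 37.5 µM IBMX and 10% fetal bovine serum.

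Magnolol is a lignan from magnolia bark. Dicoumarol is a coumarin anticoagulant that blocks the vitamin K cycle and inhibits the quinone reductase NQO1. During adipogenesis the transcription factors PPARγ and C/EBPα switch on genes for lipid droplet coats, fatty acid uptake, triglyceride synthesis, insulin-responsive glucose transport and secreted adipokines. Rosiglitazone activates PPARγ directly. IBMX, in the medium of every group, raises cAMP by blocking phosphodiesterases.

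Estimated depth was 61200000 to 70500000 reads per dicoumarol library and 63400000 to 67400000 reads per magnolol library. The 10 top genes held 19.7% to 20.5% of the signal with dicoumarol and 20.2% to 23.6% with magnolol. All 7 fibroblast and stromal markers found in the table, and all 7 adipocyte markers looked for, passed the filter of a mean of 10 over the 15 DFAT libraries. Endothelial markers summed to 438 to 446 with dicoumarol and 462 to 681 with magnolol, 2 of 8 were tested, and KDR was listed at 0 throughout. ERG made 64.4% of the endothelial sum over all 15 DFAT libraries. Leukocyte markers summed to 828 to 1040.3 and 797 to 968, with CD3E at 0. CD14 made 91.2% of their sum over all 15 DFAT libraries. Epithelial markers summed to at most 11.2 in the magnolol, dicoumarol and vehicle libraries, none was tested, and KRT19 and CDH1 were at 0. Skeletal muscle markers summed to 195 to 211 with dicoumarol and 179 to 272 with magnolol, and ACTA1 made 55.8% of their sum over all 15 DFAT libraries.

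Magnolol libraries held more transcript than dicoumarol libraries for 22 of 26 adipocyte genes tested, and 11 of these differences were called. Most genes called between the compounds were higher with magnolol. Of 14819 genes tested, 233 (1.57%) differed at an adjusted p under 0.05, the threshold for a call throughout. Higher with magnolol were 187 genes (1.26%) and higher with dicoumarol 46 (0.31%). The differences are on the log2(normalized count + 1) scale, from a limma fit over the 5 DFAT groups with Benjamini-Hochberg adjustment. This fit does not adjust for the replicate number. With that number as a block more genes were called, all 233 among them (see How the results depend on the processing). At least 2-fold apart and called were 39 genes (0.263%) with magnolol higher and 2 (0.0135%), MLANA and SLC16A6, with dicoumarol higher. SLC16A6, of the monocarboxylate transporter family, differed by -1.17 ± 0.22 (SE, adjusted p = 0.00823) and lost its call without dicoumarol replicate 2 (adjusted p = 0.0543), which left 1 such gene. The median log2 difference was 0.55 among the 187 and -0.37 among the 46, against 0.00 over all tested genes with a median standard error of 0.10. In all 233 the 3 magnolol libraries lay wholly above or wholly below the 3 dicoumarol libraries, which was also so for 10.9% (above) and 10.7% (below) of all tested genes. Leaving out any 1 of the 6 libraries, which also leaves fewer samples, gave 115 to 150 calls, the fewest without dicoumarol replicate 2; 78 of the 187 and 6 of the 46 were called under each of the 6 omissions.

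**Figure D1:**
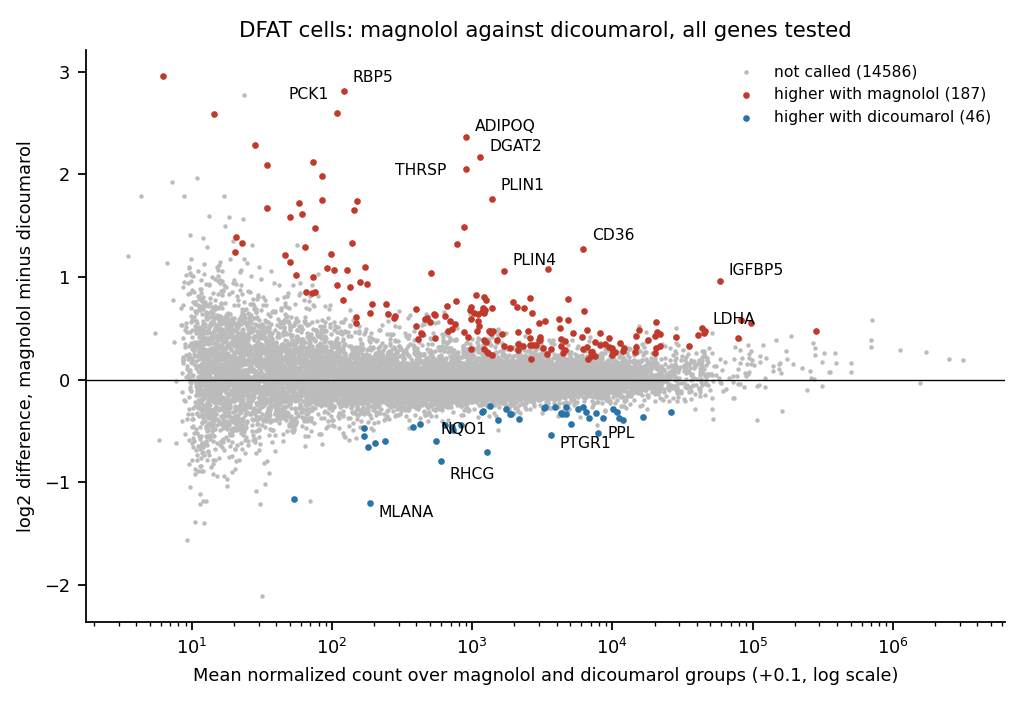
Log2 difference between magnolol and dicoumarol (vertical, positive when higher with magnolol) against the mean normalized count over the 6 libraries (horizontal, log scale) for the 14819 genes tested. Red points are the 187 genes called higher with magnolol and blue points the 46 called higher with dicoumarol; red points reach almost 3 on the log2 scale while blue points stop near -1.2.

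Adipocyte genes separated the compounds most. Among 26 tested members of an adipocyte list, 11 (42.3%) were called higher with magnolol and none higher with dicoumarol, and 22 lay above 0, with a median log2 difference of 0.55. For this and every later list, the shares over all tested genes were 1.26% called higher with magnolol and 0.31% higher with dicoumarol. Of all 14819 tested genes, 7184 lay above 0 and 7635 below. ADIPOQ encodes the secreted hormone adiponectin (ENSSSCG00000039103, chromosome 13, 124633685 to 124646646 in the deposited coordinates, whose pig build the sources used here do not name). Its normalized counts were 237, 307 and 335 with dicoumarol and 1176, 1521 and 1868 with magnolol. The lowest magnolol library was above 3 times the highest dicoumarol library, and the log2 difference was 2.36 ± 0.22 (SE, adjusted p = 1.09e-05). Mean counts were 28.3 in vehicle, 2184 in the combination and 3979.8 with rosiglitazone, so dicoumarol libraries lay between vehicle and magnolol.

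Lipid droplet coat genes followed. PLIN1, the perilipin that coats the droplet and gates lipolysis (ENSSSCG00000001844, chromosome 7, 55236348 to 55250797), stood at 736, 597 and 549.6 with dicoumarol and 1872, 2332 and 2144 with magnolol. The groups did not overlap, and the log2 difference was 1.76 ± 0.10 (adjusted p = 3.79e-08); the vehicle mean was 140.2. PLIN4, another coat protein, gave 1198, 1061 and 1028 against 2279, 2473 and 2083, a log2 difference of 1.05 ± 0.10 (adjusted p = 1.89e-05). Against the same 3 vehicle libraries, PLIN4 was 2.42 higher with dicoumarol and 3.48 higher with magnolol on the log2 scale, so each compound had raised it. Over all tested genes, 4.22% were called for magnolol against vehicle and 1.94% for dicoumarol against vehicle. PLIN5, which tethers droplets to mitochondria, had low counts, at 0.975, 0.856 and 0 with dicoumarol and 7.03, 11.0 and 16.8 with magnolol (adjusted p = 0.00599). Its mean over the 6 compared libraries was below the filter of 10. It was tested only through the counts of other DFAT groups. LIPE, hormone-sensitive lipase, gave 922, 719 and 778 against 1254, 1372 and 1162 (log2 difference 0.65 ± 0.12, adjusted p = 0.00933). LIPE lost its call in 3 of the 6 omissions of 1 library, with the highest adjusted p, 0.0708, without dicoumarol replicate 2. Over the whole lipid droplet list, 4 of 15 tested members were called, PLIN5 among them, all higher with magnolol, with a median of 0.13.

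CIDEC, which enlarges droplets by lipid transfer, was not called in the main fit, like most tested members of the lipid droplet list. Its counts were 741, 522 and 556 with dicoumarol and 731, 834 and 791 with magnolol. Dicoumarol replicate 1 reached the level of the lowest magnolol library, and the log2 difference was 0.39 (95% interval 0.09 to 0.69, adjusted p = 0.268). With the replicate number as a block it was called (adjusted p = 0.0396).

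**Figure D2:**
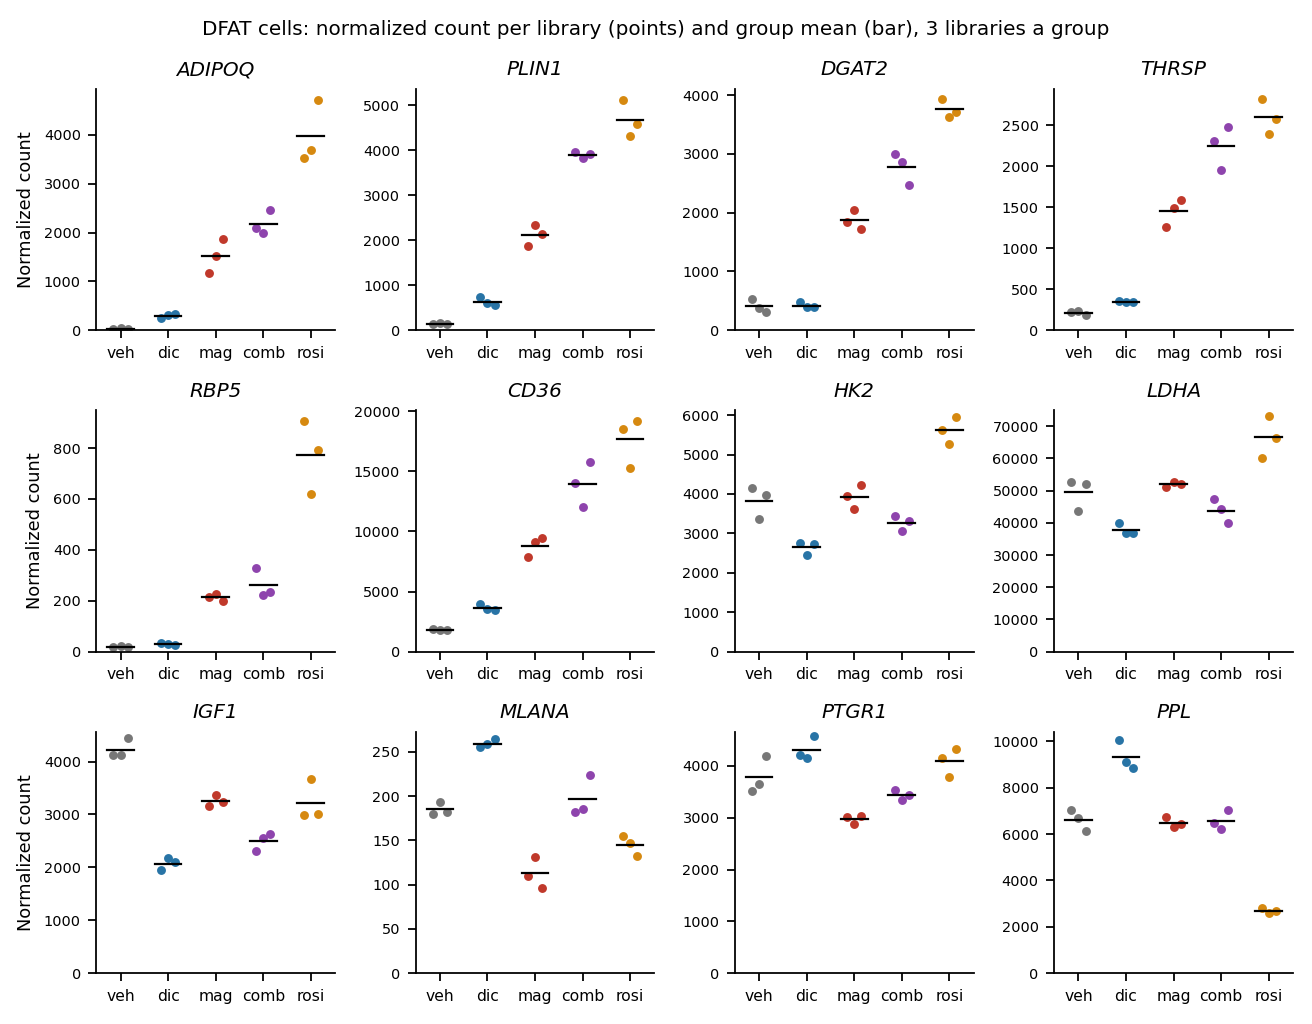
Normalized count in each DFAT library (points; black bar, mean of 3) for 12 genes, with vehicle (veh), dicoumarol (dic), magnolol (mag), combination (comb) and rosiglitazone (rosi) along the horizontal axis; each vertical axis starts at 0. For ADIPOQ, PLIN1, THRSP, RBP5 and CD36 the magnolol points sit above all dicoumarol and vehicle points; for HK2 and LDHA the dicoumarol points are the lowest; for MLANA and PPL they are the highest.

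Of 17 tested fatty acid uptake and transport genes, 4 were called higher with magnolol and none the other way; 4 lay below 0, and the list median was 0.21. CD36, the fatty acid translocase (ENSSSCG00000061957, chromosome 9, 99687536 to 99782169), read 3931, 3513 and 3466 with dicoumarol and 7839.9, 9086 and 9453 with magnolol. The groups did not overlap, and the log2 difference was 1.27 ± 0.10 (adjusted p = 1.27e-06). FABP3 and FABP4 encode cytosolic fatty acid carriers; their log2 differences were 1.08 ± 0.12 (adjusted p = 7.29e-05) and 0.70 ± 0.12 (adjusted p = 0.00297). FABP4 counts were 921, 1114 and 1154 against 1684, 1679 and 1789, the groups apart by a wide gap. LPL, the lipoprotein lipase that frees fatty acids from circulating triglyceride, gave 17152, 15932 and 16627 with dicoumarol and 21237, 25556 and 26909.7 with magnolol, a log2 difference of 0.56 ± 0.08 (adjusted p = 0.000961). The dicoumarol mean for LPL was close to that of vehicle, 15637, with a log2 difference from vehicle of 0.09 (adjusted p = 0.813), while magnolol stood 0.65 above vehicle (adjusted p = 8.15e-05).

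Among triglyceride synthesis genes, DGAT2 and PCK1 were called, each higher with magnolol. DGAT2, which adds the final acyl chain (ENSSSCG00000034102, chromosome 9, 10032128 to 10068437), read 481, 385 and 384 with dicoumarol and 1839, 2043 and 1717 with magnolol, a log2 difference of 2.16 ± 0.14 (adjusted p = 1.17e-07). The dicoumarol libraries lay at the vehicle level, mean 405, with a log2 difference from vehicle of 0.07 (adjusted p = 0.933). PCK1, the cytosolic enzyme that feeds glycerol-3-phosphate synthesis in fat cells, varied more: 52.6, 37.7 and 11.8 with dicoumarol and 212, 210.2 and 130.5 with magnolol. Its log2 difference was 2.60 ± 0.49 (adjusted p = 0.00869), and the call was lost with no filter or no variance trend, at an adjusted p of up to 0.0642. The other 15 of 17 tested members of the triglyceride list were not called, and the list median was 0.00.

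Fatty acid synthesis genes did not move together. THRSP, or Spot 14, a lipogenic nuclear protein (ENSSSCG00000033822, chromosome 9, 12479907 to 12488557), was 352, 346 and 339.8 with dicoumarol and 1260.2, 1492 and 1593 with magnolol. All 3 magnolol libraries exceeded 3 times any dicoumarol library, with a log2 difference of 2.06 ± 0.11 (adjusted p = 7.13e-09). ELOVL6, which elongates palmitate, differed by 0.42 ± 0.07 (adjusted p = 0.00287). FASN, fatty acid synthase, read 68379.6, 53577 and 53579.9 with dicoumarol and 57054, 44211 and 35113 with magnolol. The FASN groups overlapped, and its log2 difference was -0.38 (95% interval -0.80 to 0.04, adjusted p = 0.549). With the replicate number as a block FASN was called (adjusted p = 0.00582). ACACA, acetyl-CoA carboxylase, and SCD, the stearoyl-CoA desaturase, had log2 differences of -0.29 (adjusted p = 0.115) and 0.20 (95% interval 0.01 to 0.38, adjusted p = 0.433). In the list, 2 of 19 tested members were called and the median was -0.05.

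SLC2A4 encodes GLUT4, the insulin-responsive glucose transporter. Its counts were low, at 11.7, 9.42 and 5.90 with dicoumarol and 56.2, 52.1 and 33.7 with magnolol, and did not overlap (log2 difference 2.28 ± 0.33, adjusted p = 0.000961). ADIRF, an adipogenesis regulatory factor, rounded off the called adipocyte genes with 26.3, 25.7 and 25.6 against 69.2, 114 and 84.2 (log2 difference 1.72 ± 0.24, adjusted p = 0.000679). The summed level of the 7 adipocyte markers was 19580 to 20789 with dicoumarol, 27864 to 34674 with magnolol and 16192 to 19244 with vehicle. LPL made 73.7% of the sum over all 15 DFAT libraries. In these bulk libraries, a larger share of cells that had differentiated and more transcript per differentiated cell cannot be told apart.

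The regulators above these genes differed less. PPARG, which encodes PPARγ, read 992, 1091 and 967 with dicoumarol and 1138, 1251 and 1149 with magnolol. The groups did not overlap but were close, and the log2 difference was 0.21 (95% interval 0.07 to 0.36, adjusted p = 0.173), which did not pass. Against vehicle, the magnolol difference for PPARG was 0.35 (adjusted p = 0.00539) and the dicoumarol difference 0.13 (adjusted p = 0.56). CEBPA, which encodes C/EBPα, read 378, 366 and 349 and 483, 639.8 and 488. Its log2 difference of 0.55 (95% interval 0.25 to 0.84) had an adjusted p of 0.0687 and passed under 3 other analyses: fitting only the magnolol and dicoumarol groups, quantile normalization, and the replicate block. None of 30 tested PPAR, C/EBP and KLF transcription factor genes was called in the limma fit, and their median was -0.05.

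Genes outside the adipocyte list made 5 of the 10 largest called differences with a symbol and a mean of at least 100: RBP5, SGK2, KLB, ITIH3 and FCN2. RBP5, a cytosolic retinol-binding protein (ENSSSCG00000054936, chromosome 5, 63601134 to 63612191), read 32.2, 30.0 and 26.5 with dicoumarol and 215, 228 and 198 with magnolol. The magnolol libraries were at least 6 times any dicoumarol library, and the log2 difference was 2.81 ± 0.17 (adjusted p = 3.79e-08), the largest among the genes named by rule. KLB, β-Klotho, the co-receptor of the hormone FGF21, read 65.3, 83.9 and 59.0 and 215, 194 and 248 (log2 difference 1.65 ± 0.21, adjusted p = 0.000285). SGK2, a serum- and glucocorticoid-regulated kinase family member, read 89.7, 69.4 and 51.1 and 231, 265 and 201 (log2 difference 1.74 ± 0.27, adjusted p = 0.00168). ITIH3, an inter-alpha-trypsin inhibitor heavy chain that binds hyaluronan, was 566, 436 and 381 with dicoumarol and 1299, 1248 and 1283 with magnolol. The dicoumarol libraries for ITIH3 spanned the vehicle mean of 468, and the magnolol libraries stood well above (log2 difference 1.49 ± 0.17, adjusted p = 7.29e-05). FCN2, a ficolin of the lectin complement pathway, differed by 1.33 ± 0.15 (adjusted p = 7.29e-05). AQP3, an aquaglyceroporin that carries glycerol and water and was picked after its values were seen, read 495, 442 and 391 against 1051, 1237 and 1030.1 (log2 difference 1.32 ± 0.13, adjusted p = 1.76e-05).

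Of 27 tested glycolysis and hypoxia genes, 7 (25.9%) were called higher with magnolol, none the other way, and 22 lay above 0 (median 0.17). For 5 of the 7, dicoumarol was called against vehicle and magnolol was not. HK2, hexokinase 2, read 2759, 2444 and 2740.1 with dicoumarol, 3953, 3612 and 4235 with magnolol and 4147, 3365 and 3965 with vehicle. The dicoumarol libraries were below all others, and the difference between the compounds was 0.57 ± 0.08 (adjusted p = 0.000961). LDHA, lactate dehydrogenase A, read 39997, 36841 and 36748, 51216, 52736 and 51931 and 52846, 43794 and 52116 in the same order (log2 difference 0.46 ± 0.09, adjusted p = 0.01). EGLN3, an oxygen-sensing prolyl hydroxylase that is itself induced by hypoxia, differed by 0.60 ± 0.10 (adjusted p = 0.00215), and PFKFB3, which makes the activator of phosphofructokinase, by 0.52 ± 0.09 (adjusted p = 0.00544).

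Against vehicle, the log2 differences with dicoumarol were -0.65 for EGLN3, -0.53 for HK2, -0.52 for PFKFB3, -0.39 for LDHA and -0.31 for the glycolytic kinase PGK1, each called. With magnolol they were -0.05, 0.04, 0.00, 0.07 and 0.02, none called. ALDOC, an aldolase, and SLC2A1, the basal glucose transporter GLUT1, were called between the compounds with log2 differences of 0.45 and 0.34. Of the 7, HK2, EGLN3, PFKFB3 and SLC2A1 were called under each omission of 1 library. LDHA was lost in 2 omissions, PGK1 in 4 and ALDOC in 4, at an adjusted p of up to 0.0641, 0.0927 and 0.142, each highest without dicoumarol replicate 2, and the list count was 4 without dicoumarol replicate 2 or 3.

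**Figure D3:**
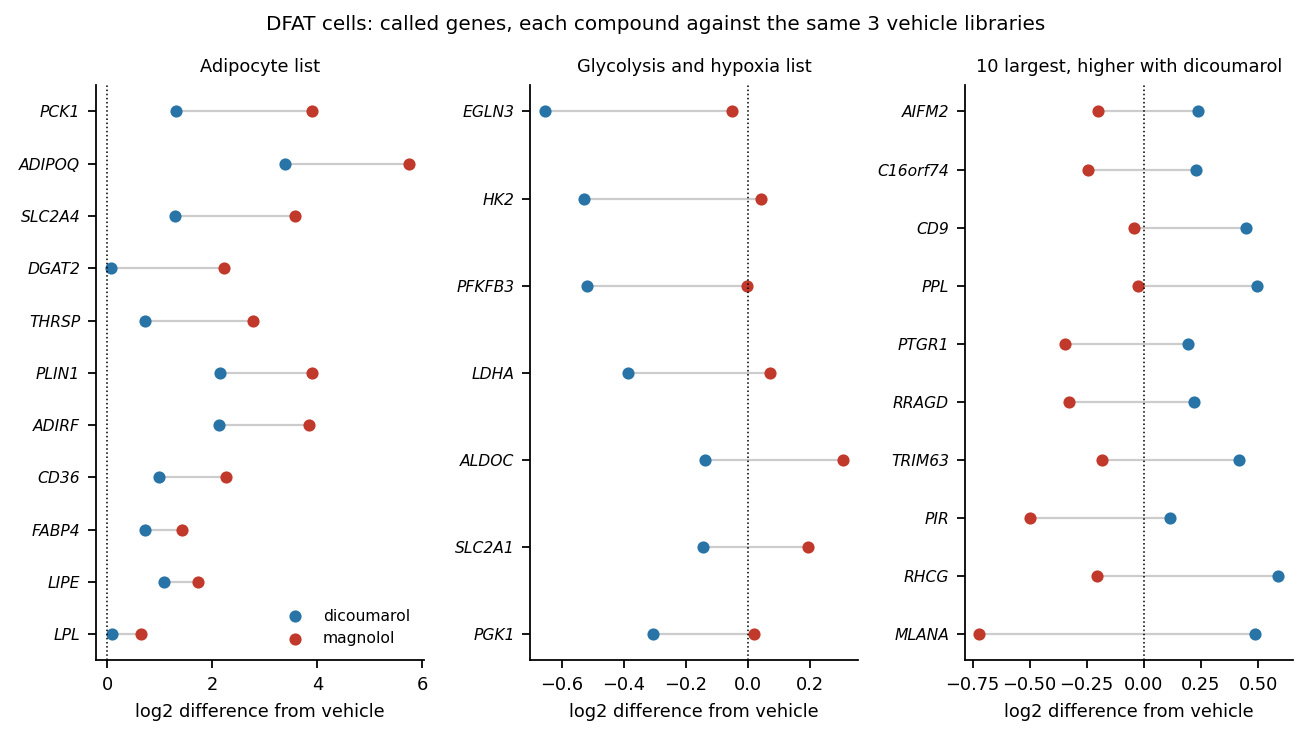
Log2 difference from vehicle with dicoumarol (blue) and with magnolol (red), joined by a line for each gene, for the 11 called adipocyte genes, the 7 called glycolysis and hypoxia genes and the 10 genes named as most higher with dicoumarol; the dotted line marks the vehicle level and the 3 panels have their own scales. The same 3 vehicle libraries serve for each compound. Adipocyte genes lie at or above the vehicle level with each compound; in the middle panel the blue points lie left of 0 and the red points between -0.05 and 0.31.

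Growth factor genes showed each kind of pattern. IGFBP5, a binding protein that modulates insulin-like growth factors, read 37818, 42677 and 38215 with dicoumarol, 78939, 72934 and 78522 with magnolol and 39082, 40974 and 37533 with vehicle. Dicoumarol libraries overlapped vehicle and all magnolol libraries were far above (log2 difference 0.96 ± 0.08, adjusted p = 2.71e-06). IGF1 itself read 1942, 2168 and 2103 with dicoumarol, 3166, 3372 and 3230.3 with magnolol and 4116, 4123 and 4438 with vehicle. Here the vehicle libraries were highest and dicoumarol lowest, with a log2 difference between the compounds of 0.65 ± 0.08 (adjusted p = 0.000129). With SLC2A4, these were the 3 called members of 24 tested in the insulin and IGF list, whose median was 0.06.

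Few phosphodiesterase or cAMP-responsive genes were called, each lower with dicoumarol than with magnolol. PDE7B, a cAMP phosphodiesterase, read 533, 609 and 523 with dicoumarol, 735, 947 and 807 with magnolol and 1361, 1562 and 1325 with vehicle. No dicoumarol library reached the lowest magnolol library, and the log2 difference was 0.57 ± 0.10 (adjusted p = 0.00313). SIK1, a cAMP-induced kinase, read 1585, 1707 and 1442 and 2395, 2829.5 and 2514 (log2 difference 0.71 ± 0.11, adjusted p = 0.00174), below the vehicle mean of 3402. PDE4D, the phosphodiesterase 4D gene, read 503, 536 and 525 and 661, 629 and 659.7, did not overlap, and missed the threshold at a log2 difference of 0.32 (95% interval 0.15 to 0.49, adjusted p = 0.0627). It passed when only the compared groups were fitted, with quantile normalization and with the replicate block. PDE4B overlapped, with a log2 difference of 0.09 (95% interval -0.40 to 0.58), and it changed sign without dicoumarol replicate 3 (-0.15) and without magnolol replicate 2 (-0.10). NR4A1, an immediate early nuclear receptor, differed by 0.39 (95% interval 0.11 to 0.68, adjusted p = 0.221). Called were 1 of 15 tested phosphodiesterase genes (6.67%) and 2 of 26 cAMP-responsive genes (7.69%), SIK1 and IER3, all higher with magnolol. Over all tested genes that share was 1.26%. IER3 lost its call in 2 omissions, at up to 0.0576 without dicoumarol replicate 3.

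Chemokine and inflammatory genes were higher with magnolol in 6 of 23 tested (26.1%), with a list median of 0.24. IL33, an alarmin cytokine of stromal cells, read 775, 767 and 744 with dicoumarol, 1417, 1231 and 1406 with magnolol and 1651, 1392 and 1816 with vehicle. Dicoumarol libraries were well below all others (log2 difference 0.82 ± 0.12, adjusted p = 0.00135). CCL11, eotaxin, read 64.3, 59.1 and 52.1 and 151, 114 and 115, with a vehicle mean of 129 (log2 difference 1.09 ± 0.20, adjusted p = 0.00678). TNFAIP6, a hyaluronan-binding protein induced by inflammatory signals, differed by 0.71 ± 0.10 (adjusted p = 0.000707). LIF, CXCL14 and CCL2 differed by 1.02, 0.66 and 0.59 (adjusted p = 0.0185, 0.0119 and 0.0185). IL33 and TNFAIP6 were called under each omission, while the list count was 3 with no filter, 3 without dicoumarol replicate 3 or magnolol replicate 1, and 4 or 5 in the other omissions. LIF was lost in 4 omissions (adjusted p up to 0.132 without dicoumarol replicate 1), CCL2 in 3 (up to 0.125 without dicoumarol replicate 3), CXCL14 in 3 (up to 0.082 without dicoumarol replicate 3) and CCL11 in 1 (0.0515 without magnolol replicate 1).

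Most contractile and matrix genes lay above 0, and few were called. In the contractile list 23 of 24 tested members lay above 0 with a median of 0.23, and 3 (12.5%) were called. ANKRD1, a target of the mechanosensitive YAP pathway, read 70.2, 55.7 and 74.7 with dicoumarol and 152, 135 and 136 with magnolol, the latter clear of the former (log2 difference 1.07 ± 0.15, adjusted p = 0.000707). MYH11, smooth muscle myosin heavy chain, read 847, 1029 and 957 and 1238, 1488 and 1749.8 (log2 difference 0.65 ± 0.14, adjusted p = 0.0213). TPM2, a tropomyosin, differed by 0.39 ± 0.09 (adjusted p = 0.0342). MYH11 lost its call in 4 omissions and TPM2 in all 6, at up to 0.148 and 0.181, each highest without dicoumarol replicate 1. The 7 pericyte and smooth muscle markers, MYH11 among them, summed to 26047 to 27599 with dicoumarol and 31160 to 34663 with magnolol. NOTCH3 made 58.5% of their sum over all 15 DFAT libraries. The part of pericytes and smooth muscle cells in these results was not tested.

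Collagen chain genes had a median of 0.29, with 3 of 20 tested members called. COL12A1, COL8A1 and COL15A1 differed by 0.51, 0.45 and 0.40 (adjusted p = 0.0265, 0.00442 and 0.0185). COL8A1 was called under each omission; COL12A1 and COL15A1 were lost in 5, at up to 0.147 without magnolol replicate 3 and 0.138 without dicoumarol replicate 1. COL1A1, the main chain of type I collagen, read 1621690.0, 1569430.0 and 1502530.0 with dicoumarol and 2040520.0, 1707620.0 and 1929480.0 with magnolol. It was not called (log2 difference 0.27, 95% interval -0.01 to 0.55, adjusted p = 0.521). Against the shared vehicle libraries, mean 1039190, COL1A1 was higher by 0.86 with magnolol and 0.59 with dicoumarol (limma adjusted p = 0.000728 and 0.0264). Of the 20 collagen genes, 11 were called higher than vehicle with magnolol and 5 with dicoumarol, and none lower. Over all 14819 tested genes, 438 and 135 were called higher than vehicle. Of 27 matrix glycoprotein and crosslinking genes, TGFBI, the collagen crosslinking enzyme LOXL4 and the tenascin TNC were called, with log2 differences of 0.67, 0.64 and 0.58 (list median 0.18). TGFBI, a secreted adhesion protein, read 737, 725 and 777 with dicoumarol and 1292, 1075 and 1218 with magnolol, groups well apart (adjusted p = 7.29e-05). TNC lost its call in 4 omissions, at up to 0.0691 without magnolol replicate 3. The fibroblast and stromal markers summed to 2546290 to 2649350 with dicoumarol and 2865840 to 3223140 with magnolol, and their part was not tested. COL1A1 made 58.2% of their sum over all 15 DFAT libraries.

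TGF-β and BMP pathway genes had 3 of 29 tested members called, all higher with magnolol, with a median of 0.09. Among them were the ligands TGFB3 and INHBB, with log2 differences of 0.54 and 0.37 (adjusted p = 0.00207 and 0.00743). TGFB3 read 622, 644 and 573 with dicoumarol and 927, 844 and 909 with magnolol, without overlap. INHBB lost its call in 1 omission, at 0.0512 without dicoumarol replicate 1.

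Genes higher with dicoumarol were fewer, and their differences smaller. MLANA, a melanosomal and lysosomal membrane protein known from pigment cells (ENSSSCG00000005206, chromosome 1, 216232832 to 216245359), read 255, 259 and 264 with dicoumarol, 110.4, 132 and 96.8 with magnolol and 180.1, 193 and 182 with vehicle. Magnolol libraries were the lowest and dicoumarol libraries the highest of the 3 groups, with a log2 difference of -1.20 ± 0.13 (adjusted p = 3.26e-05). RHCG, an ammonia channel, read 762, 742 and 757 and 459.6, 468 and 381 (log2 difference -0.79 ± 0.13, adjusted p = 0.00281). PPL, the cytoskeletal linker periplakin, read 10042, 9111 and 8842 with dicoumarol, 6757, 6287 and 6453 with magnolol and 7023, 6691 and 6150.5 with vehicle. Magnolol overlapped vehicle and dicoumarol was above each (log2 difference -0.52 ± 0.07, adjusted p = 0.000285). PTGR1, prostaglandin reductase 1, which also reduces reactive aldehydes, read 4209, 4160.4 and 4574 and 3011, 2883 and 3024 (log2 difference -0.54 ± 0.07, adjusted p = 0.000285). MLANA, RHCG, PPL, PTGR1, MTUS1 and 1 gene without a symbol, ENSSSCG00000008240, were the 6 called under each omission. MTUS1, a microtubule-associated protein picked after its values were seen, differed by -0.37 ± 0.05 (adjusted p = 0.000254).

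The other 6 of the 10 genes named by rule were called in the full fit but not under every omission. PIR, pirin, a transcriptional co-regulator, differed by -0.61 (adjusted p = 0.0431), and TRIM63, a muscle ubiquitin ligase, by -0.60 (adjusted p = 0.0121). RRAGD, a Rag GTPase of lysosomal nutrient sensing, differed by -0.55, the tetraspanin CD9 by -0.49, C16orf74 by -0.47 and AIFM2 by -0.44 (adjusted p = 0.0408, 0.0129, 0.0483 and 0.0292). Calls were lost in 5 omissions for PIR, 3 for TRIM63, 6 for RRAGD, 4 for CD9, 6 for C16orf74 and 6 for AIFM2. The highest adjusted p was 0.214 for PIR without magnolol replicate 1, 0.0916 for TRIM63 without dicoumarol replicate 1 and 0.236 for RRAGD without magnolol replicate 3. It was 0.0691 for CD9 without dicoumarol replicate 3, 0.196 for C16orf74 without dicoumarol replicate 2 and 0.16 for AIFM2 without dicoumarol replicate 2.

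Dicoumarol's known targets were examined separately. NQO1, the quinone reductase that dicoumarol inhibits, read 1673, 1775 and 1744 with dicoumarol, 1185, 1499 and 1278 with magnolol and 2229, 2305 and 2328 with vehicle. Magnolol libraries were lowest and vehicle libraries highest, and the log2 difference between the compounds was -0.40 ± 0.08 (adjusted p = 0.0129). Against the shared vehicle libraries the NQO1 log2 difference was -0.40 with dicoumarol and -0.80 with magnolol (adjusted p = 0.00954 and 5.52e-06). AIFM2, which reduces ubiquinone and vitamin K at membranes, was the other called gene among 15 tested in the vitamin K list. VKORC1, the vitamin K epoxide reductase that coumarins block, differed by 0.10 (95% interval -0.11 to 0.31, adjusted p = 0.818) and GGCX, the vitamin K-dependent carboxylase, by 0.15 (95% interval 0.03 to 0.27, adjusted p = 0.275). In the NRF2 list, NQO1 and the pentose phosphate enzyme PGD (-0.32, adjusted p = 0.0172) were called of 23 tested, and 16 lay below 0 (median -0.13). In the xenobiotic list the repressor AHRR was called of 11 tested (-0.32, adjusted p = 0.0283), while CYP1B1 differed by 0.18 (95% interval 0.02 to 0.33). Under omissions of 1 library NQO1 was lost in 4, PGD in 4, AHRR in 5 and AIFM2 in 6. The highest adjusted p was 0.0861 without magnolol replicate 1 for NQO1 and, without dicoumarol replicate 1, 0.141 for PGD and 0.187 for AHRR; it was 0.16 for AIFM2 without dicoumarol replicate 2.

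Of 23 tested cholesterol synthesis genes, 3 (13%) were called, all higher with dicoumarol, and none of the 3 was called under every omission. In all, 22 of the 23 lay below 0 (magnolol minus dicoumarol), with a median of -0.19. INSIG1, the sterol-sensing brake on SREBP processing, read 14093, 12881 and 13641 with dicoumarol, 11335, 10307 and 9277 with magnolol and 11029.8, 10574 and 10710.4 with vehicle, dicoumarol being above each (log2 difference -0.40 ± 0.08, adjusted p = 0.00938). IDI1, an isomerase of the pathway, differed by -0.34 (adjusted p = 0.0232). The count was 0 without dicoumarol replicate 1, dicoumarol replicate 3 or magnolol replicate 3, 1 without magnolol replicate 2, and 1 with no filter or no variance trend, 5 with quantile normalization, 6 with only the compared groups and 9 with the replicate block. INSIG1 was lost in 3 omissions and IDI1 in 4, at up to 0.0632 and 0.148 without dicoumarol replicate 1.

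A list of lysosomal genes and targets of the MiT/TFE transcription factors was drawn up after MLANA, GPNMB and RRAGD had been seen, so its count is a description. Of 54 tested members, 5 were called higher with dicoumarol and 40 lay below 0 (median -0.10). Beside MLANA and RRAGD these were GPNMB, a lysosomal glycoprotein (-0.37), NPC1, the lysosomal cholesterol exporter (-0.36), and ATP6V1G1, a proton pump subunit (-0.32). All but MLANA lost their call in at least 1 omission, with adjusted p up to 0.0625 for GPNMB, 0.122 for NPC1 (each without dicoumarol replicate 1), 0.089 for ATP6V1G1 (without magnolol replicate 1) and 0.236 for RRAGD (without magnolol replicate 3).

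**Figure D4:**
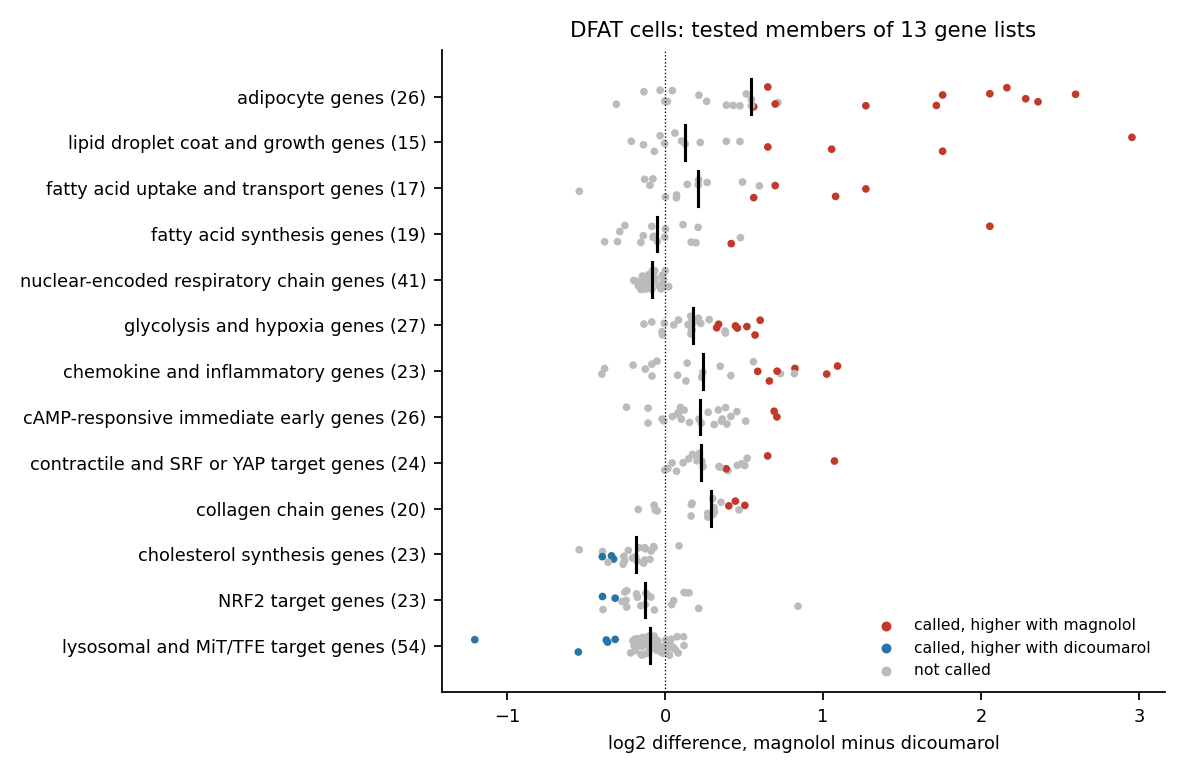
Log2 difference between magnolol and dicoumarol for each tested member of 13 gene lists (points; black bar, list median; number tested in brackets; points spread vertically for legibility). Red and blue points are called genes; grey points are not called. Called adipocyte members reach 2.60, respiratory chain members cluster narrowly just left of 0, and called cholesterol synthesis members are all left of 0. Members are shared between some lists.

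Of the 34 lists, 11 had no called gene in either direction. Nuclear-encoded respiratory chain genes lay below 0 in 39 of 41 tested members, but by a median of only -0.08 and never beyond -0.20 (UQCRC1). Fatty acid oxidation genes lay below 0 in 21 of 29 (median -0.06), branched-chain amino acid breakdown genes in 15 of 18 (median -0.10) and citric acid cycle genes in 17 of 20 (median -0.06). Transcripts of the mitochondrial genome lay above 0 in 12 of 13 (median 0.13); they took 10.7% to 11.7% of the signal with dicoumarol and 10.5% to 12.9% with magnolol. Interferon-stimulated genes (36 tested, median -0.02), cell cycle genes (30, median 0.02), complement genes (17, median 0.00) and LXR target genes (10, median 0.03) had no called gene either. ER chaperone genes had none among 21 tested, with 17 above 0, 4 below and a median of 0.07. PDK4, a pyruvate dehydrogenase kinase and PPAR target, was low and overlapped, at 18.5, 24.8 and 22.6 with dicoumarol and 26.1, 31.1 and 17.9 with magnolol. Its log2 difference of 0.15 (95% interval -0.58 to 0.89) turned to -0.01 without magnolol replicate 2.

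In 3T3-L1 cells the same contrast gave no called gene among 15723 tested (0%), with 693 at an unadjusted p under 0.05 in the limma fit and 0 calls by limma-voom. Same-numbered 3T3-L1 libraries deviated together, and with the replicate number as a block 79 genes were called, 66 higher and 13 lower with magnolol. The mouse libraries are independent of the DFAT libraries, and the values stand side by side by symbol. The log2 differences in 3T3-L1 cells were 1.41 ± 0.38 for PLIN1, 1.61 ± 0.50 for CD36 and 1.03 ± 0.32 for FABP4, with no overlap between the groups. They were 1.42 ± 0.53 for ADIPOQ, 1.19 ± 0.42 for DGAT2 and 1.18 ± 0.60 for THRSP, with overlap. With the block, adjusted p was 0.000944 for Plin1, 0.00171 for Cd36, 0.00052 for Adipoq, 0.00434 for Dgat2 and 0.000756 for Fabp4; Thrsp was not called (adjusted p = 0.18). CIDEC and CEBPA were not called in the main DFAT fit but were called there with the block. In 3T3-L1 cells the blocked log2 differences of Cidec and Cebpa were 1.77 and 0.60 (adjusted p = 0.00496 and 0.0174). Whether the 2 cell systems differ was not tested, and their differentiation media also differed.

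The adipocyte list had a median of 0.99 over 21 matched members in 3T3-L1 cells, 19 of them above 0. The glycolysis and hypoxia list, whose DFAT median was 0.17, stood at -0.01 over 24 members, and the chemokine list, 0.24 in DFAT cells, at -0.11 over 14. The contractile list, 0.23 in DFAT cells, stood at -0.03 over 23, and the cholesterol synthesis list, -0.19 in DFAT cells, at 0.13 over 21. Of 123 genes called higher with magnolol in DFAT cells and matched, 71 (57.7%) lay above 0 in 3T3-L1 cells, against 52.2% of all 9369 matched genes. Among the 17 of those 123 that were at least 2-fold apart in DFAT cells, 13 lay above 0 with a median of 0.61. Of 33 matched genes called higher with dicoumarol, 15 lay below 0. CD9 and PTGR1 were lower with magnolol without overlap in each cell system (-0.34 and -0.28 in 3T3-L1 cells); CD9 was called there with the block (adjusted p = 0.0458).

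**Figure D5:**
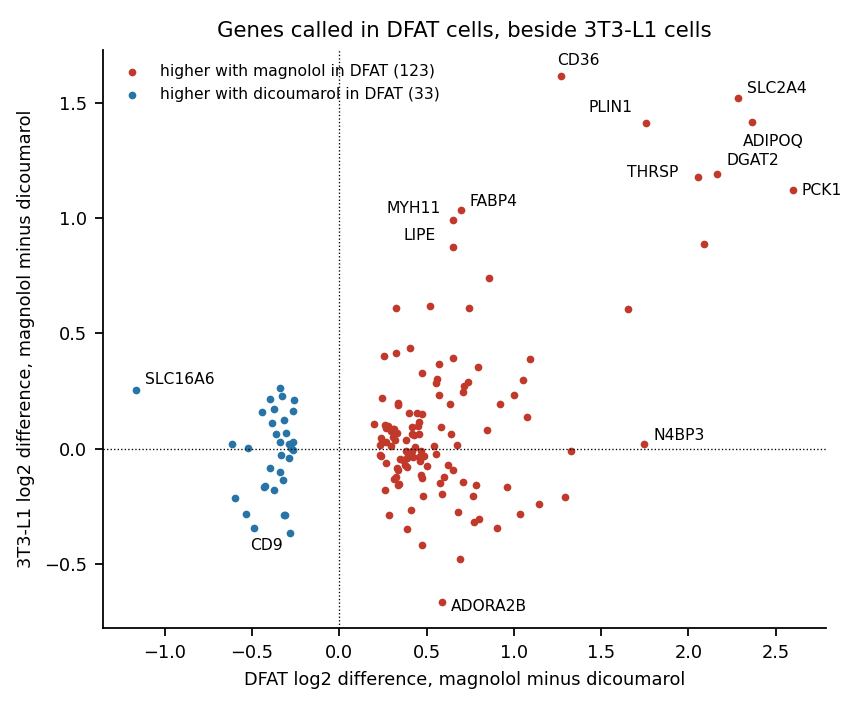
Log2 difference between magnolol and dicoumarol in 3T3-L1 cells (vertical) against that in DFAT cells (horizontal) for genes called in DFAT cells and matched by symbol; red, higher with magnolol in DFAT cells (123); blue, higher with dicoumarol (33). ADIPOQ, PLIN1, CD36, SLC2A4, DGAT2, THRSP and PCK1 sit at the upper right, while most other points lie within about 0.5 of the horizontal line. PCK1 was low in 3T3-L1 cells, with means of 7.30 with dicoumarol and 12.6 with magnolol and overlapping groups. It was not called there with the replicate block (limma adjusted p = 0.491).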

How the data were processed

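mRNA-enriched, dUTP strand-marked RNA-seq libraries were used, per the labels' protocols. The submitters' processing notes name bcl2fastq, STAR and DESeq2, with no roles, and the mouse build GRCm38 for all samples; no pig build or counting step is named there. The values are signal as deposited, DESeq2-normalized gene counts per the labels' file descriptions. The end of a gene is the listed stop less 1.

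Computed here: genes whose mean over the 15 DFAT libraries reached 10 (14819 of 34307) were fitted on log2(value + 1) with limma 3.58.1 in R 4.3.3, all 5 groups in 1 model with a variance trend, two-sided, Benjamini-Hochberg over all tested genes. Fold changes on this scale understate those of low genes. Intervals are 95%, not adjusted. A log2 difference is magnolol minus dicoumarol unless vehicle is named. The 3T3-L1 table was fitted apart; symbols were matched across species where unique in each table. Labels do not say that replicates are separate cultures, so p-values measure the spread between these libraries. No pair of replicates agreed within sampling noise. Same-numbered 3T3-L1 libraries' deviations correlated at 0.28, 0.38 and 0.46, which pairs them. Depth was estimated from the smallest steps of each column. On simulated data, 165 of 14740 genes were called, 9 falsely, with 78% of 200 changed genes recovered.

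Members and lists were chosen with earlier results of these data known. Named by rule were 25 preset genes, of which 2 were not tested, and the 10 largest called differences in each direction with a symbol, at least 100 as their mean in the 6 libraries and no overlap; in lists, the largest and all called members are given, except a few genes not reported here. AQP3, MTUS1, SLC16A6 and the genes of the closing section were chosen after their values were seen. Alternatives were 2 other pseudocounts, 2 other filters, only the compared groups, no variance trend, quantile normalization, limma-voom on estimated reads, a replicate block and leaving out each library.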

Additional observations from a re-analysis of the deposited data

Results flagged for a closer look

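AIFM2, which reduces ubiquinone and vitamin K, separated the compounds in opposite directions in the 2 cell systems. In DFAT cells all 3 magnolol libraries lay below all 3 dicoumarol libraries (log2 difference -0.44), with 717, 734 and 648 against 888, 1001 and 959.6. Such a lack of overlap was found for 10.7% of all tested DFAT genes. In 3T3-L1 cells all 3 magnolol libraries lay above all 3 dicoumarol libraries, at a log2 difference of 0.16 ± 0.09 (SE). This was not called (limma adjusted p = 0.992), and the share of 3T3-L1 genes without overlap was not computed. The difference between the systems was not tested. The DFAT call was lost in all 6 omissions of 1 library, at an adjusted p of up to 0.16 without dicoumarol replicate 2.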

How the results depend on the processing

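All 233 called genes kept their sign under every alternative in which they had a value, and 83 stayed called in every one besides the minimum mean of 100, under which 212 had a value and all 212 stayed called. The 233 calls became 149 with no filter, 450 with only the 2 compared groups fitted (231 of the 233 among them) and 158 with no variance trend; 5 other settings gave 222 to 256. Leaving out 1 library gave 115 to 150 calls in all for magnolol against dicoumarol, and 33 to 39 at least 2-fold apart where the full set gave 41; that count was 23 at a minimum mean of 100, where fewer genes are tested. Such omissions gave 400 to 577 calls for magnolol against vehicle (626, 4.22% of genes, with all libraries), 153 to 237 for dicoumarol against vehicle (288, 1.94%, with all libraries) and 0 in 3T3-L1 cells. List counts under omissions ran from 10 to 11 for adipocyte, 4 to 7 for glycolysis and hypoxia, 3 to 5 for chemokine and 0 to 3 for cholesterol synthesis genes. With no filter they were 3 for chemokine and 1 for cholesterol synthesis genes, and the latter count was 6 with only the compared groups, 1 with no variance trend and 5 with quantile normalization. For the 40 named genes, 544 single-gene values kept direction and call, 44 lost and 8 gained a call and 3 changed sign, none of them called. Across the omissions PDK4 ran from -0.014 (without magnolol replicate 2) to 0.37, and PDE4B from -0.15 (without dicoumarol replicate 3; -0.10 without magnolol replicate 2) to 0.30. Beyond the shown construction (fewer samples or fewer genes), the cause was not tested.

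The deviations of same-numbered DFAT libraries correlated at 0.15, 0.05 and 0.12, and each library correlated best with its own number. The main fit took no pairing from these low values, and whether the numbers pair the DFAT libraries was not tested. Only magnolol and dicoumarol libraries were correlated. In each of the 5 DFAT groups PDE4B was highest in replicate 2 and lowest in replicate 3, and FASN was highest in replicate 1. PDE4D and CEBPA kept no such order. The main fit does not adjust for the replicate number. With the block, 656 genes were called between magnolol and dicoumarol, all 233 among them, 48 at least 2-fold, 1360 for magnolol and 670 for dicoumarol against vehicle, and 9 in the cholesterol synthesis list. In 3T3-L1 cells the block gave 79 calls. CIDEC, CEBPA, FASN and PDE4D gained a call with the block.

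Count models on recovered reads were not run, because whole reads were recovered for only 89.5% to 90.8% of low DFAT values, and a promoter motif search was not run. With 3 libraries a group, the simulated data recovered 56.5% of 1.5-fold, 78.1% of 2-fold and 96% of 4-fold changes, so a gene not called here may still differ.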

Other observations

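Enzymes that hydroxylate collagen stood out when the list of 233 called genes was read through, so this group was chosen after its values were seen and has no test of its own. Among the 10 tested members of the P4HA, P3H and PLOD families, which hydroxylate prolines and lysines of collagen, 6 were called higher with magnolol and all 10 lay above 0, with a median log2 difference of 0.35. Over all tested genes 1.26% were called higher with magnolol, and 7184 of 14819 lay above 0. P4HA1 read 17543, 18053 and 16669 with dicoumarol, 23551, 24124 and 24584 with magnolol and 20463, 19088 and 20524 with vehicle, the magnolol libraries being the highest of the 3 groups (log2 difference 0.47 ± 0.05, limma adjusted p = 7.29e-05). P4HA3, PLOD2, PLOD1, P4HA2 and P3H2 differed by 0.41, 0.43, 0.42, 0.28 and 0.74. P4HA1, P4HA3 and PLOD2 were called under each omission of 1 library. PLOD1, P4HA2 and P3H2 were lost in 5, 2 and 4 omissions, at up to 0.136, 0.0691 and 0.104, each highest without dicoumarol replicate 3.

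Integrin subunits, the receptors for matrix, were picked in the same way. Of 21 tested, 5 were called, all higher with magnolol, and 16 lay above 0 (median 0.24). Over all tested genes 1.26% were called higher with magnolol, and 7184 of 14819 lay above 0. ITGA7, a laminin receptor subunit, read 1869, 1959.5 and 1838 with dicoumarol, 3135, 3419 and 3268 with magnolol and 640.0, 669 and 631 with vehicle, each group apart from the others (log2 difference 0.79 ± 0.09, adjusted p = 7.29e-05). ITGA5, of the fibronectin receptor, read 78972, 79627 and 79177 and 123207, 109140.0 and 117814 (log2 difference 0.56 ± 0.07, adjusted p = 0.000211). ITGA3, ITGA11 and ITGB8 differed by 0.38, 0.32 and 0.29 and lost their calls in 5, 6 and 6 omissions, at up to 0.113, 0.133 and 0.147, without magnolol replicate 3, dicoumarol replicate 1 and magnolol replicate 3. S100A8 and S100A12, calcium-binding proteins best known from myeloid cells, were higher with magnolol by 0.92 and 1.09, while the other 8 S100A genes tested all lay below 0. S100A12 read 113, 116 and 98.3 with dicoumarol and 227, 247 and 228 with magnolol, with a vehicle mean of 177. S100A8 lost its call in 2 omissions (adjusted p up to 0.0731 without dicoumarol replicate 2). The leukocyte markers CD14 and CD68 had log2 differences of -0.09 and 0.03.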
